A study of Homo sapiens with 2 samples.

Results

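The proximal signalling module of the B-cell receptor (BCR) was examined in Ramos and Ramos640 cells through 10 genes chosen by name: the receptor chains CD79A and CD79B, the SRC-family kinases LYN, BLK, FYN and LCK, the kinase CSK that restrains them, the kinases SYK and BTK, and the adaptor BLNK. They are 10 of the 37122 genes in the RNA-seq count table, and the rule that selects them is a list of names. Ramos is a human Burkitt's lymphoma cell line of B-cell origin. Ramos640 is a line derived from Ramos that resists complement-dependent cytotoxicity by rituximab, an antibody against CD20, and every 21 days it received rituximab (640 mg/mL in the sample labels, μg/mL in the methods) with 20% normal human serum. Both lines grew in the same serum-supplemented medium, and RNA of 3 passages was pooled into 1 library per line. No difference between the lines therefore has a replicate check, and Ramos640 is 1 derivative line, so its values need not hold for other resistant cells.

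In B cells, CD79A and CD79B form the heterodimer that carries the signal of the antigen-binding immunoglobulin across the membrane. SRC-family kinases, mainly LYN, with BLK and FYN, phosphorylate the tyrosine motifs in the tails of this heterodimer, and SYK docks there and becomes active. SYK phosphorylates the scaffold BLNK, on which BTK meets its substrate PLCG2, the phospholipase that starts calcium release. CSK, held near the membrane by PAG1, phosphorylates the inhibitory tail tyrosine of SRC-family kinases, and the phosphatase CD45 (PTPRC) removes that phosphate. LYN also has an inhibitory side, since it phosphorylates CD22 and other receptors that recruit phosphatases. LCK is best known as the proximal kinase of T cells, and it is also found in some malignant B cells.

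The libraries held 38030090 reads on genes in Ramos and 30871826 in Ramos640, and counts were brought to a common scale with median-of-ratios size factors of 1.14 and 0.876. Normalized counts below are reads divided by these factors, and log2 fold changes are Ramos640 over Ramos with a pseudocount of 1. Their 95% intervals are exact binomial intervals on the reads, and they cover counting error only, not the variation between cultures. A gene was called past the fold limit where it was more than 1.5-fold higher or lower. Of 8 B-cell markers, all had reads in both lines, 114278 in Ramos and 88088 in Ramos640 in sum. The 11 T-cell markers summed to 42 and 109 reads, with 7 at 0 in both lines (CD3D and CD2 among them) and CD247 the most abundant at 25 and 58 reads. The sums were 24 and 39 reads for 6 NK-cell markers (PRF1 the most abundant at 10 and 26), 20 and 19 for 7 monocyte markers (S100A8, 13 and 4) and 43 and 16 for 5 epithelial markers (KRT18, 19 and 11). The B-cell marker that rituximab binds, CD20 (MS4A1), stood at 9654 reads in Ramos against 1904 in Ramos640 (log2 fold change -1.96, 95% interval -2.03 to -1.89).

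All 10 genes were expressed in both lines, each with 4216 or more reads over both libraries, so counting error was small throughout. CD79B was the only gene of the 10 past the fold limit, on the higher side in Ramos640, and none passed it on the lower side. Over all 18778 genes with at least 10 reads, 14.6% were past the limit on the higher side and 17.3% on the lower side. Among the 3496 genes with at least 4000 reads, a range that holds all 10, the shares were 6.69% and 5.64%, so 1 gene of 10 is close to what abundant genes show in general. For the 10 genes the log2 fold change had a median of 0.027, beside -0.015 over all genes tested and 0.053 over the abundant genes, and it was -0.053 when total counts set the scale. In bulk RNA, fewer cells with a transcript and less of it per cell cannot be told apart. The counting interval lay above 0 for 4 genes (CD79A, CD79B, BLK and CSK) and below 0 for 3 (LYN, LCK and BTK), and it included 0 for SYK, BLNK and FYN. Were biological variation assumed at a coefficient of 0.2, the interval of each of the 10 would include 0, that of CD79B running from -0.16 to 1.44.

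**Figure D1:**
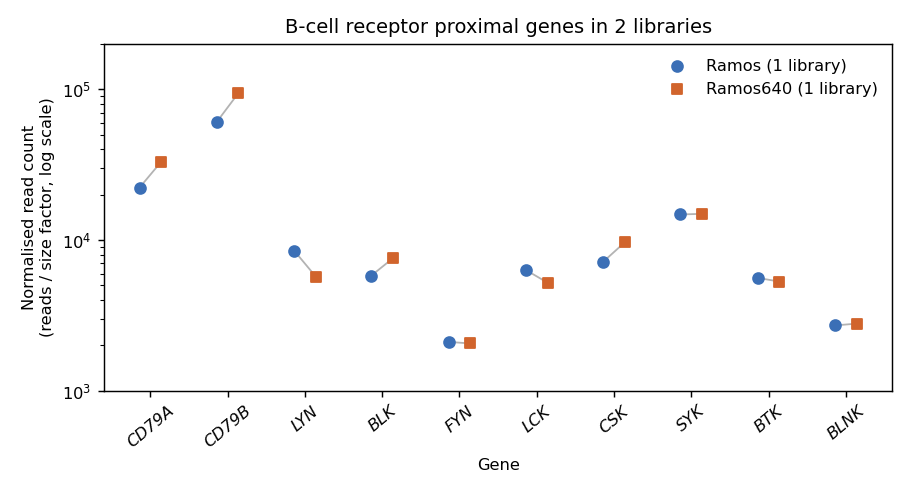
Normalized read counts of the 10 genes in the Ramos and the Ramos640 library on a log axis, 1 point per library, with a grey line joining the libraries of a gene. CD79B lies highest in both libraries (60897 and 94594), and FYN (2112 and 2061) and BLNK (2714 and 2791) lie lowest.

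Both receptor chains were higher in Ramos640. CD79B (GRCh37, chr17:62006098-62009696, minus strand) had 69495 reads in Ramos and 82890 in Ramos640, or 60897 and 94594 normalized counts. Its log2 fold change was 0.64 (95% interval 0.62 to 0.65), a 1.55-fold difference. CD79A (chr19:42381349-42385439, plus strand) had 25460 and 29007 reads, or 22310 and 33103 normalized counts, and its log2 fold change of 0.57 (0.54 to 0.59) was 1.48-fold, just inside the limit. Ordered by reads, CD79B moved from rank 44 to rank 27 among all genes and CD79A from rank 187 to rank 125. The chains together took 0.250% of all reads in Ramos and 0.362% in Ramos640. The other 8 genes took 0.159% and 0.151%, so the larger share of the 10 genes in Ramos640 (0.514% against 0.409%) lay in the 2 receptor chains.

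The balance between the chains, which pair with each other in the receptor, was nearly the same in both lines. CD79A had 0.579 times the reads per kilobase of CD79B in Ramos and 0.553 times in Ramos640, with length taken over all annotated exons. The change of this ratio was 0.955-fold (95% interval 0.937 to 0.974), a value that depends neither on gene length nor on library scale. Relative to CD20, both chains stood far higher in Ramos640. The reads of CD79B were 7.20 times those of MS4A1 in Ramos and 43.5 times in Ramos640, a 6.05-fold change (5.75 to 6.36), and for CD79A the change was 5.78-fold. The other B-cell markers did not move one way, since PAX5, the transcription factor of B-cell identity, had 4624 and 2039 reads (log2 fold change -0.80, -0.88 to -0.72), and CD74, the invariant chain of MHC class II, had 39745 and 47255 (0.63, 0.61 to 0.65).

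The promoters of CD79A and LCK are shown because, among the genes with a sequence in the RefSeq promoter table (GRCh38.p14), these stand at the ends of the order of fold changes. The table held 14 start sites for 7 of the 10 genes. Each window below is the 250 bases before a start site, 5′ to 3′ on the strand of the gene, and capitals mark AGGAAGT, a core bound by ETS-family factors such as PU.1 and ETS1. The CD79A window lies at chr19:41877029-41877278 (plus strand), and the windows of the LCK start sites at chr1:32251015-32251264 and chr1:32273871-32274120 (plus strand).
CD79A: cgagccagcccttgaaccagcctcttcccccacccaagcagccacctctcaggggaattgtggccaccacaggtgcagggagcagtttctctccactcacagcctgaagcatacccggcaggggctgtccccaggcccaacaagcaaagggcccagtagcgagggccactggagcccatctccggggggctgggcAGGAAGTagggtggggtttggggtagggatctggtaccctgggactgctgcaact
LCK start site 1: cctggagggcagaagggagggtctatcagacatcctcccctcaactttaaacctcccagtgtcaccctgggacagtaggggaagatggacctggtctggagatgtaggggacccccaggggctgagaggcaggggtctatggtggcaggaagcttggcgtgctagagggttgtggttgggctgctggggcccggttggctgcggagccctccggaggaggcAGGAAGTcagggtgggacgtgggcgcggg
LCK start site 2: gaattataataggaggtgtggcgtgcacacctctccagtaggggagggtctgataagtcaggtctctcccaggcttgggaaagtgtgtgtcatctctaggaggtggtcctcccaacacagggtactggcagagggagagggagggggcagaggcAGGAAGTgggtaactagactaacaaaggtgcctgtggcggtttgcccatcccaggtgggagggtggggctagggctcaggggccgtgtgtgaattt
The motif starts 55 bases before the CD79A start site, and 29 and 96 bases before those of LCK. Searched on both strands, it was also found in windows of SYK, BTK and BLNK, and these letters are not in the windows of FYN and CSK. Of 35116 windows of all genes, 7.01% hold it. The octamer ATTTGCAT, bound by OCT factors and known from immunoglobulin promoters, is in none of the 14 windows and in 1.63% of all. The motifs were chosen after the windows were seen, a match is not evidence of binding, and genes on either side of 0 have it.

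The SRC-family kinases did not move together. LYN (GRCh37, chr8:56792394-56926728, plus strand), the main kinase of the family in B cells, had 9716 and 5018 reads in Ramos and Ramos640, or 8514 and 5727 normalized counts. Its log2 fold change was -0.57 (95% interval -0.62 to -0.52), a ratio of 0.673 that is just inside the limit and was the lowest of the 10 genes. BLK (chr8:11344403-11422108, plus strand), a kinase largely restricted to the B lineage, had 6633 and 6651 reads, or 5812 and 7590 normalized counts, and was 1.31-fold higher in Ramos640 (log2 0.38, 0.34 to 0.43). LCK (chr1:32716845-32751766, plus strand) had 7221 and 4572 reads, or 6328 and 5218 normalized counts, a log2 fold change of -0.28 (-0.33 to -0.22). FYN (chr6:111981535-112194655, minus strand), a broadly expressed kinase, had 2410 and 1806 reads, or 2112 and 2061 normalized counts, and the interval of its log2 fold change (-0.035, -0.12 to 0.053) included 0. LCK and FYN are also abundant in T cells. Of the 11 T-cell markers, 7 had no reads in either library, while CD3E had 1 read in Ramos and 31 in Ramos640, CD247 25 and 58, CD4 11 and 19, and CD3G 5 and 1. The part of these reads in the values of LCK and FYN was not tested.

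The make-up of the family, which does not depend on the scaling between the libraries, showed the same contrast. It is not free of the GC trend described below. With that trend removed, the log2 fold changes of BLK (0.17) and LYN (-0.58) had a smaller gap in the same direction. Over the reads of all 8 SRC-family kinases (26475 in Ramos and 18345 in Ramos640), LYN took 36.7% (exact 95% interval 36.1 to 37.3) in Ramos and 27.4% (26.7 to 28.0) in Ramos640, while BLK took 25.1% (24.5 to 25.6) and 36.3% (35.6 to 36.96). The reads of BLK were 0.683 times those of LYN in Ramos and 1.33 times in Ramos640, a 1.94-fold change (1.85 to 2.04). Per kilobase of exon, the shares from Ramos to Ramos640 were 39.1% and 35.6% for LCK, 28.4% and 21.1% for LYN, 24.0% and 34.6% for BLK, and 5.86% and 6.33% for FYN. LCK was thus ahead of LYN and BLK in Ramos, and LCK and BLK were nearly level in Ramos640. This order depends on the length used: on the longest annotated transcript, the shares were 34.6% and 29.2% for LCK, 19.7% and 13.5% for LYN, and 35.6% and 47.6% for BLK, which put BLK ahead in both lines. On either length the share of BLK was larger and those of LYN and LCK were smaller in Ramos640. Of the remaining members of the family, FGR had 482 and 280 reads, SRC 7 and 5, and YES1 was listed at 0 in both libraries, which allows at most 0.0139% and 0.0201% of the reads of the family.

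**Figure D2:**
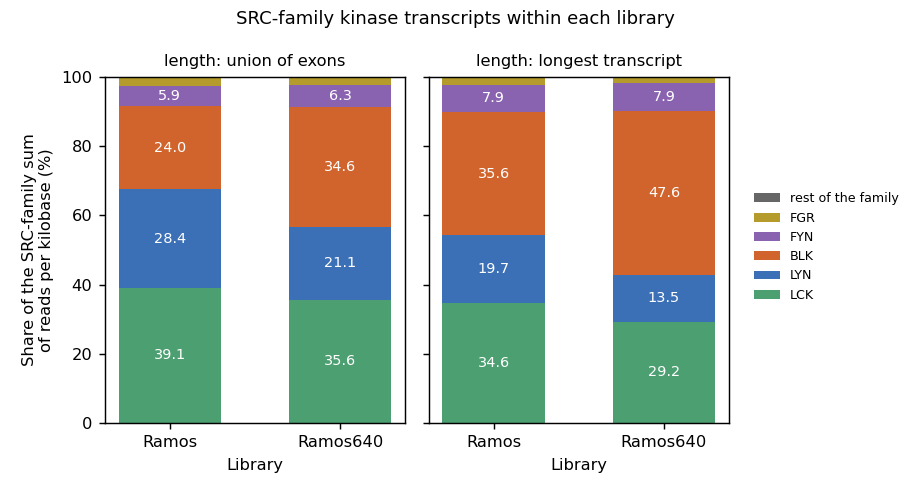
Share of each SRC-family kinase in the summed reads per kilobase of the family, as percent, in the Ramos and the Ramos640 library, with length taken over all annotated exons (left) or the longest transcript (right). Over all exons BLK takes 24.0% in Ramos and 34.6% in Ramos640 while LYN takes 28.4% and 21.1%, and on the longest transcript BLK takes 35.6% and 47.6%.

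CSK (GRCh37, chr15:75074421-75095538, plus strand), the kinase that holds SRC-family kinases in their closed form, was on the higher side in Ramos640 with 8185 reads in Ramos and 8478 in Ramos640, or 7172 and 9675 normalized counts. Its log2 fold change was 0.43 (95% interval 0.39 to 0.48), a 1.35-fold difference. Relative to its targets, the reads of CSK were 0.842 times those of LYN in Ramos and 1.69 times in Ramos640, a 2.01-fold change (LYN relative to CSK changed 0.499-fold, 0.476 to 0.522), and against LCK the change was 1.64-fold (1.56 to 1.72). No such change was seen against BLK, where the ratio of BLK to CSK changed 0.968-fold with an interval of 0.925 to 1.01. The membrane anchor of CSK, PAG1, was lower, its reads being 3452 in Ramos and 1432 in Ramos640 (log2 -0.89, -0.98 to -0.80), so that the reads of CSK were 2.37 times those of PAG1 in Ramos and 5.92 times in Ramos640. The opposing phosphatase PTPRC was also lower, with 8585 and 3367 reads (-0.97, -1.03 to -0.91). LYN was lower by less than PTPRC, and the ratio of LYN to PTPRC changed 1.32-fold (1.25 to 1.39). This depended on the scale: with the GC trend described below removed, LYN (-0.58) and PTPRC (-0.64) were close together. On that scale CSK stood at 0.18, so its gap to LYN was smaller but in the same direction.

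The kinases and the adaptor that act after the SRC family were nearly level between the lines. SYK (GRCh37, chr9:93564069-93660831, plus strand) had 16879 reads in Ramos and 13084 in Ramos640, or 14791 and 14931 normalized counts, and its log2 fold change was 0.014 (95% interval -0.019 to 0.047). BTK (chrX:100604326-100645784, minus strand), the TEC kinase that activates PLCG2, had 6403 and 4652 reads, or 5611 and 5309 normalized counts. Its log2 fold change of -0.080 (-0.13 to -0.025) lay below 0 by more than counting error, at a ratio of 0.946. BLNK (chr10:97948927-98031344, minus strand), the scaffold that SYK phosphorylates, had 3097 and 2446 reads, or 2714 and 2791 normalized counts, with a log2 fold change of 0.041 (-0.036 to 0.12). On the annotation, 364 bases of BLNK exons overlap ZNF518A on the opposite strand (415 and 204 reads). The use of strand in counting is not given in the sources used here. Reads of the 2 genes may therefore not be told apart in that stretch. On the same strand, 854 bases of BLNK exons overlap the pseudogene NPM1P25, and 288 bases of CD79B exons overlap another protein-coding gene. On the opposite strand, 65 bases of BLK exons overlap a long non-coding RNA. These last overlapping genes are not in the count table, and their part in the values was not tested. The close relatives of SYK and BTK, at far lower levels, were not level. ZAP70, the SYK-family kinase of T cells, had 410 and 127 reads (-1.30, -1.61 to -1.02), and TEC had 724 and 253 (-1.13, -1.35 to -0.93). The reads of SYK were 41.2 times those of ZAP70 in Ramos and 103 times in Ramos640, and those of BTK were 8.84 and 18.4 times those of TEC.

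**Figure D3:**
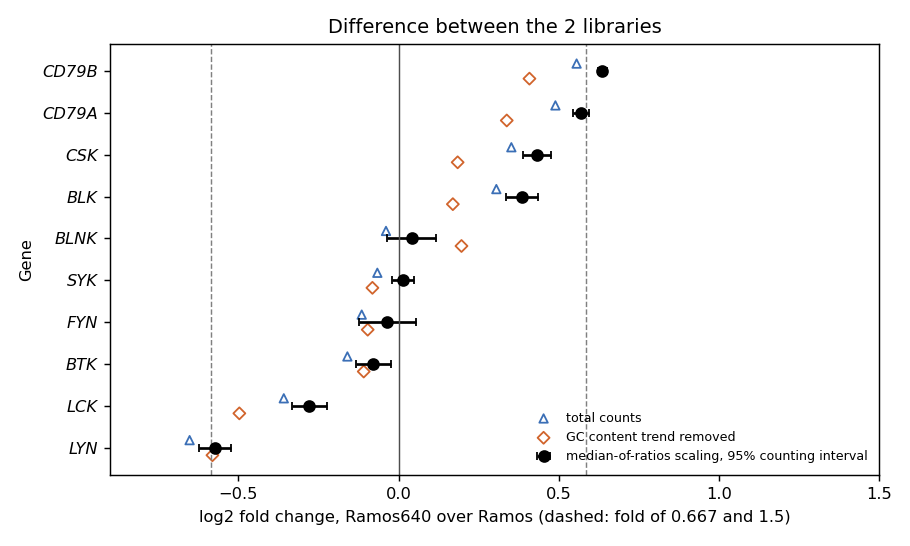
Log2 fold change of each of the 10 genes, Ramos640 over Ramos, in order from CD79B (0.64) to LYN (-0.57). Filled points show median-of-ratios scaling with the 95% counting interval, triangles total counts, diamonds values with the GC trend subtracted, and dashed lines the fold limits.

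Ordered by fold change, the genes ran CD79B, CD79A, CSK, BLK, BLNK, SYK, FYN, BTK, LCK and LYN. Neighbours in this order could not be separated beyond counting error for CSK and BLK (1.03-fold apart, 95% interval 0.987 to 1.08), BLNK and SYK (1.02-fold, 0.961 to 1.08), SYK and FYN (1.03-fold, 0.969 to 1.10), and FYN and BTK (1.03-fold, 0.959 to 1.11). CD79B lay 1.05-fold above CD79A (1.03 to 1.07), BLK 1.27-fold above BLNK (1.19 to 1.35), BTK 1.15-fold above LCK (1.09 to 1.21) and LCK 1.23-fold above LYN (1.17 to 1.29). Parts of this order depended on the GC trend described below. With that trend removed, BLNK (0.20) stood above CSK (0.18) and BLK (0.17), and LCK (-0.50) and LYN (-0.58) were closer together. CD79B (0.41) stayed above CD79A (0.34), and BTK (-0.11) above LCK. The ends of the order were far apart, since the reads of CD79B were 7.15 times those of LYN in Ramos and 16.5 times in Ramos640, a 2.31-fold change (2.23 to 2.39).

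Levels between genes were compared as RPKM, the reads per kilobase of exon scaled to library size. CD79B (860 RPKM in Ramos and 1264 in Ramos640) and CD79A (498 and 699) were far above the enzymes, and SYK (85.2 and 81.3) was the most abundant of the kinases in both lines when length was taken over all exons. LCK (57.0 and 44.4), CSK (47.3 and 60.4), LYN (41.4 and 26.4) and BLK (35.0 and 43.2) followed, with CSK and LCK and also LYN and BLK changing places between the lines on this length. BTK (21.5 and 19.3), FYN (8.55 and 7.89) and BLNK (7.72 and 7.51) were the lowest in both. RPKM rests on total reads and on exon lengths that include all annotated transcripts, so the level of a gene with many alternative exons, such as BLNK or BTK, may be understated. On the longest transcript, CSK (100.1 RPKM) and BLK (97.3) were above SYK (84.9) in Ramos640, and no places changed between CSK and LCK or between BLK and LYN, since CSK (78.5 in Ramos) was above LCK (76.6 and 59.7) and BLK (78.7 in Ramos) above LYN (43.5 and 27.7) in both lines.

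Of 71 other genes of the pathway, arranged in 6 lists, 64 had at least 10 reads, and 2 of these (3.13%) were past the fold limit on the higher side and 16 (25.0%) on the lower side, beside the 14.6% and 17.3% of all genes. Their median log2 fold change was -0.22, with 42 below 0 and 22 above. Of the 10 proximal genes 6 were above 0, and of all 18778 genes tested 9162 were above and 9612 below. Among those 6, SYK and BLNK had intervals that included 0, and on total counts they stood at -0.067 and -0.040. Among the 4 co-receptor genes, CR2, the complement receptor CD21, had 1226 reads in Ramos and 83 in Ramos640 (-3.49, -3.84 to -3.18), and the tetraspanin CD81 (0.17) was within the limit. All 3 measured relatives of SYK and BTK were past the limit on the lower side (ZAP70, TEC and TXK, the last with only 19 and 7 reads and an interval that included 0), and BMX was listed at 0. Of 15 measured regulators of the proximal kinases, 6 were lower and none higher. Besides PTPRC and PAG1, these were the ubiquitin ligases CBL (2210 and 1077 reads, -0.66) and CBLB (251 and 105, -0.87), the BTK inhibitor SH3BP5 (750 and 383, -0.59) and the inhibitory Fc receptor FCGR2B, which had 11 reads in Ramos and 0 in Ramos640.

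Among 19 measured adaptors, STAP1, which binds BTK and TEC, was lower with 3642 and 1229 reads (-1.19, -1.28 to -1.09), and SLA2, which dampens antigen receptor signals, was higher with 135 and 222 (1.09, 0.78 to 1.42). GRB2, the most widely used of them, stayed within the limit (0.30). Of 20 enzymes and scaffolds that act directly after the module, 3 were lower and none was higher. Over all genes tested, 17.3% were lower and 14.6% higher, so the lower share of these 20 was not above the general one. PRKCB, the protein kinase C isoform that follows BTK and PLCG2, had 216 reads in Ramos and 0 in Ramos640. That is 55.3-fold lower against a floor of 3 reads, and the 95% counting interval allows 44.6-fold or more. By immunoblot, the paper reported PKCβ2, a protein product of this gene, as higher in Ramos640 than in Ramos. The gap between RNA and protein was not tested. VAV3, an exchange factor for small GTPases, had 419 and 95 reads (-1.75, -2.10 to -1.44), and BCL10, a scaffold on the way to NF-κB, had 332 and 169 (-0.59). PLCG2, the substrate of BTK, was nearly level with 22813 and 16188 reads (-0.11). With the GC trend removed, BCL10 stood at -0.33 and was no longer past the limit, and all directions named here for genes past the limit were the same on this scale and on total counts.

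**Figure D4:**
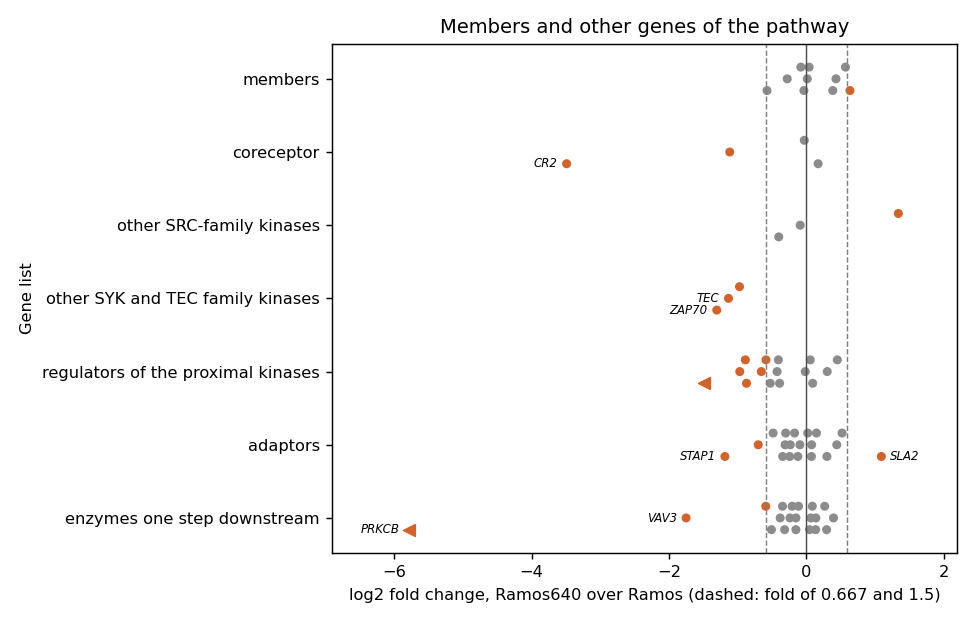
Log2 fold change, Ramos640 over Ramos, of the 10 genes and of the measured genes of the 6 other pathway lists, 1 point per gene, with orange points past the fold limits (dashed). Names are given for genes with at least 100 reads in the higher library and a log2 difference over 1, triangles mark PRKCB and FCGR2B at the bound set by the floor of 3 reads, and 16 of the 64 pathway genes lie below the lower limit.

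Fold changes across the table moved with the GC content of the exons. Genes with at least 100 reads were ordered by GC content and cut into 10 bins of 1022 genes, and the bin medians ran from -0.34 on the log2 scale at the AT-rich end to 0.19 at the GC-rich end. The 4 genes with intervals above 0 had high GC contents, CD79A at 60.1%, CD79B at 59.9%, BLK at 59.7% and CSK at 63.4%, and so had LCK at 58.4%, which was lower in Ramos640. The other genes ran from BLNK at 41.9% to SYK at 49.9%, with LYN at 45.6%. With the running median over GC content subtracted, the log2 fold changes were 0.34 for CD79A, 0.41 for CD79B, 0.17 for BLK and 0.18 for CSK, so none of the 10 was past the limit. Those of LCK (-0.50) and LYN (-0.58) stayed below 0, and BLNK, level before, stood at 0.20. The part of GC content in these differences was not tested.

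Each gene was also set beside its 10 nearest protein-coding genes with at least 100 reads, 5 on each side. By point value, BLK (0.38) lay above all 10 of its neighbours, whose median was -0.33 with the highest at 0.37. CD79B (0.64) lay above all 10 of its own, whose median was 0.091. The counting interval of BLK (0.34 to 0.43) overlapped those of MSRA (-0.20 to 0.96) and PINX1 (0.27 to 0.47). That of CD79B (0.62 to 0.65) lay within that of C17orf72 (0.029 to 1.14). The GC trend was not removed in this comparison. CSK lay above 9 of 10, and CD79A and BLNK each above 8 of 10. LCK (-0.28) lay above only 1 of its 10 neighbours, whose median was 0.22, and LYN (-0.57) above 2 of 10, with a median of -0.17. FYN and BTK lay within the middle of their neighbours, above 5 and 6 of 10. SYK was level while the median of its neighbours was 0.30, and it lay above 2 of them. These positions are descriptions of the gene order, and no cause was tested.

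**Figure D5:**
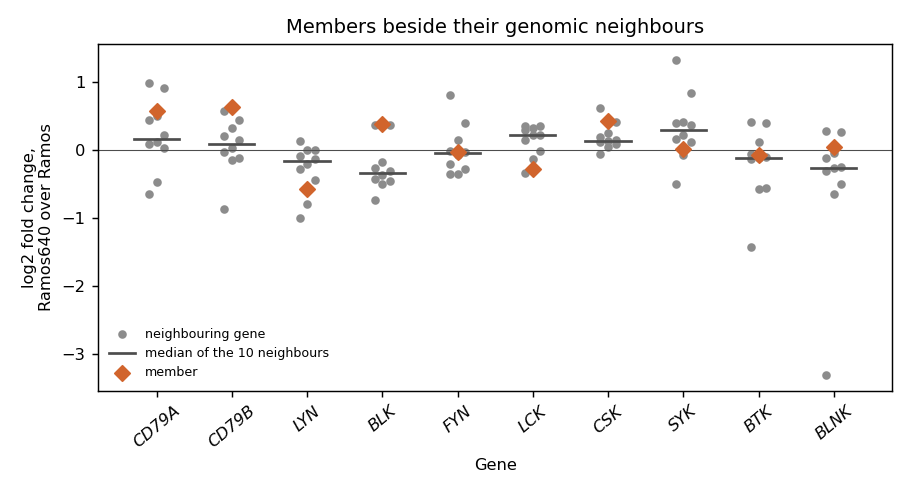
Log2 fold change, Ramos640 over Ramos, of each of the 10 genes and of its 10 nearest protein-coding genes with at least 100 reads, 1 point per gene and a bar at the median of the neighbours. By point value BLK and CD79B lie above all 10 neighbours, and LCK lies above 1 of 10.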

How the data were processed

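RNA-seq (Ion Proton) was available for Ramos and Ramos640, 1 library each. The authors aligned the reads to GRCh37 with MapSplice 2.1.6 and deposited raw read counts per gene; the counting program, its annotation and its use of strand are not given in the sources used here. The study's later step (DEseq) came after these counts. Every column of the table belongs to a labelled sample.

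Here, counts were scaled with median-of-ratios size factors, and log2 fold changes used a pseudocount of 1 for genes with at least 10 reads in both libraries together. The fold limit of 1.5 in either direction follows the study's criteria. With 1 library per line there are no residual degrees of freedom, so edgeR's quasi-likelihood test was not run and no p-value is given. Intervals are exact Clopper-Pearson at 95%, and a fold against 0 reads uses a floor of 3 reads per library. Coordinates, GC content and exon lengths were taken from GENCODE v44lift37, to which 26511 rows were joined by symbol and 2226 more through older symbols (83.9% of tested genes). The GC trend was the running median of 501 genes, using those at 100 reads or more. Total counts, TMM factors and edgeR's exact test with an assumed biological coefficient of variation (BCV) were alternatives. The steps were tested on simulated data. Python 3.11.15, pandas 2.3.3, scipy 1.17.1 and edgeR 4.0.16 were used.

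The 10 genes and all lists were chosen with earlier results of these data known. All 10 are named, as are, of each pathway list, the genes past the limit with at least 100 reads in the higher library, or its most abundant gene; marker lists are given by their sums with the most abundant marker. Others (such as TXK, CD3E, MS4A1, FCGR2B, PAX5, CD81, GRB2 and PLCG2) were chosen after their values were seen. Some genes of the lists are not reported here.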

Additional observations from a re-analysis of the deposited data

How the results depend on the processing

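No paired analysis was possible because there is 1 library per cell line, and for the same reason no library could be left out and no difference has a replicate check. CD79B was past 1.5-fold with median-of-ratios scaling, TMM factors and pseudocounts of 0.1 and 10. With total counts 0 of the 10 genes were higher and 1 was lower (LYN, log2 fold change -0.65), and their median was -0.053; this scale moved the median of all genes by -0.080. With the GC trend removed 0 of the 10 were higher, and of the 15761 genes with a GC content 1807 were higher and 2525 lower; with a fold limit of 2, 0 of the 10. With an assumed BCV of 0.2 or 0.4 in edgeR's exact test, 0 of the 10 were called. At a BCV of 0.2 the calls were 317 higher and 503 lower over all genes and 0 higher and 3 lower among the pathway genes, and at 0.4 they were 27, 36, 0 and 2. With a fold limit of 2, 1246 genes were higher and 1644 lower, 8 of the pathway genes among the lower. With at least 1 read, 4902 were higher and 5553 lower; with at least 100 reads, 1359 and 1723, with 1 pathway gene higher. With at least 4000 reads, a minimum chosen after seeing the data, 234 were higher and 197 lower, with 0 pathway genes higher and 3 lower. On the longest transcript the share of BLK in the SRC family was 12.0 percentage points larger in Ramos640 and that of LCK differed by -5.41 points (10.6 and -3.46 over all exons), and the CD79A to CD79B ratio was 0.418 in Ramos and 0.399 in Ramos640. The cause of these shifts was not tested beyond the construction of each alternative.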
